A study of Homo sapiens with 24 samples.

Results

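The matrix metalloproteinases (MMPs) are zinc-dependent enzymes that cut the proteins of the extracellular matrix, and the tissue inhibitors of metalloproteinases (TIMPs) are small secreted proteins that block them. This account follows 10 of these genes, MMP1, MMP2, MMP7, MMP9, MMP10, MMP13, MMP14, TIMP1, TIMP2 and TIMP3. They were chosen by symbol among the 60668 rows of the count table, and each symbol matched 1 row. All 10 passed the filter on low counts, which kept 22158 genes, although MMP13 had only 0 to 29 counts per library.

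RNA was sequenced from MCF-10A cells, an immortalised, non-tumour human mammary epithelial line labelled wild-type and called parental here, and from MCF-10A cells with the genotype MYC.ER. These carry MYC-ER, the MYC transcription factor fused to an oestrogen receptor's ligand-binding region, which stays inactive until 4-hydroxytamoxifen (4-OHT) binds it. Both lines grew as 3D cultures on growth factor reduced Matrigel, a gel of basement membrane proteins. They received 1 μM 4-OHT for 8, 24 or 48 h, or none (0 h), and all were collected on day 5. Each of the 8 groups had 3 libraries (24 in all). The labels name no vehicle for the 0 h groups, and the promoter of the fusion and whether the line is a clone or a pool are not given in the sources used here. The triplicates may be wells of one experiment, so p-values measure the spread between these libraries.

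MMPs are made as inactive precursors, and many of them are activated outside the cell, often by plasmin or by another MMP. MMP14 is anchored in the membrane and activates MMP2 in a complex with TIMP2, so that TIMP2 serves both as inhibitor and as adaptor. MMP1, MMP10 and MMP9 are low in resting epithelium and are textbook targets of AP-1 and ETS transcription factors, which act downstream of growth factor signalling.

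Library totals ran from 136860029 to 182438505 counts. Levels are in CPM, counts scaled to library totals adjusted by TMM (edgeR's trimmed mean of M-values) and set to a common total, and are shares of each library's RNA rather than amounts per cell. In bulk RNA, fewer cells of a type and less RNA per cell cannot be told apart. MYC RNA went from 387 ± 8.0 CPM in untreated MYC-ER cells to 795 ± 1.8 CPM after 8 h (SD, n = 3 each), while the parental group means were 463 to 532 CPM. Untreated MYC-ER cells were thus below the parental group means. These levels do not settle the labels, since 4-OHT acts by binding the fusion protein. All 8 markers of basal mammary epithelium, KRT5 among them, were detected in all 24 libraries. Of the 8 fibroblast markers, COL1A2, COL3A1 and THY1 were at 0 in 22 or 23 libraries. PDGFRA, LUM and PDGFRB had group means of at most 0.0548, 0.249 and 1.51 CPM. COL1A1 (55.5 to 215 CPM over groups) and DCN (21.5 to 157) were present and made up nearly all of the sum of the 8. That sum was highest in MYC-ER cells at 0 h (370 to 377 CPM against 77.3 to 133 elsewhere). The leukocyte markers PTPRC and CD3E and the endothelial marker CDH5 were at 0 in 23 or 24 libraries, although CSF1R (15.8 to 41.4 CPM over groups) kept the sum of the 6 leukocyte markers at 30.0 to 64.0 CPM. The 4 endothelial markers summed to at most 2.99 CPM. The 7 luminal markers summed to 232 to 249 CPM in MYC-ER cells at 0 h and 635 to 682 at 8 h, and PGR among them was at 0 in all 24.

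**Figure D1:**
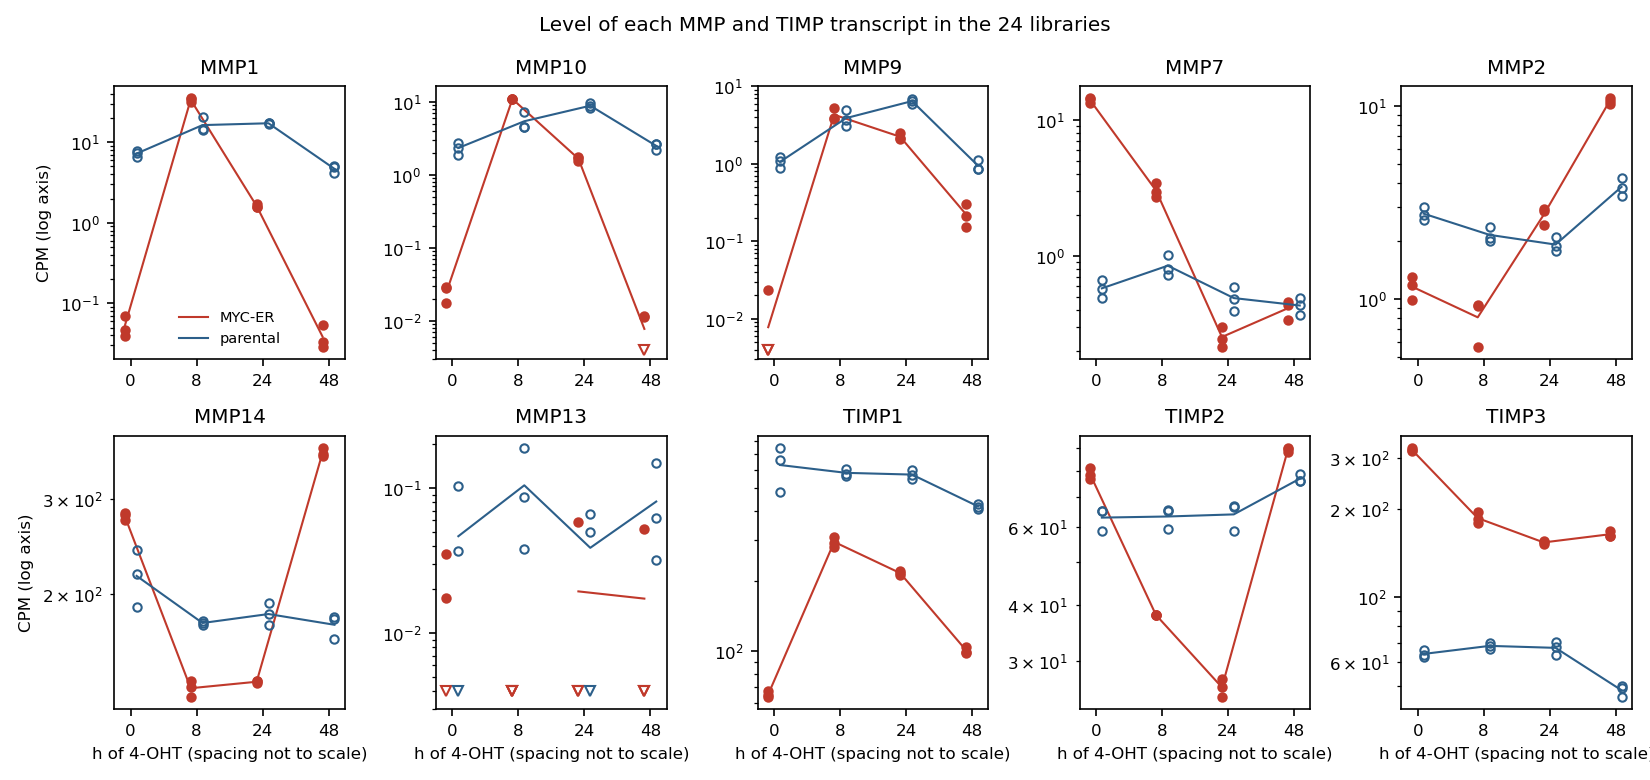
CPM (log axis) of each of the 10 genes against hours of 4-OHT, with 1 point per library, filled for MYC-ER and open for parental, and lines through group means. Triangles at the bottom stand for libraries with 0 counts. MMP1, MMP10 and MMP9 peak at 8 h in MYC-ER cells and return towards 0 h levels at 48 h, MMP7 falls, and MMP14 and TIMP2 dip and recover.

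The first comparison sets MYC-ER cells after 4-OHT against the same line at 0 h. Within this line, activation of the fusion cannot be told apart from 4-OHT itself, its solvent and handling. At 8 h, 9 of the 10 genes passed the threshold (edgeR's quasi-likelihood test, Benjamini-Hochberg adjusted p under 0.05 over all genes) in MYC-ER cells, against 67.6% of all genes tested. MMP1, MMP9, MMP10 and TIMP1 rose (4 genes, where 32.2% of all genes were called higher), and MMP2, MMP7, MMP14, TIMP2 and TIMP3 fell (5 genes, where 35.4% were called lower). At 24 h 9 were again called, with 61.6% of all genes. Of these, 5 were higher (30.4% of all genes) and 4 lower (31.2%), because MMP2 was now above its 0 h level. At 48 h 7 were called (44.1% of all genes), 5 higher (23.4%) and 2 lower (20.7%). A share near that of all genes is no result about the set, so what follows is about single genes and their sizes. The 3 times were tested against the same 0 h libraries.

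MMP1, interstitial collagenase, cleaves fibrillar collagens (ENSG00000196611.5, chr11:102789920-102798160, minus strand, GRCh38). In MYC-ER cells it had 12, 7 and 8 counts at 0 h, or 0.0696, 0.0397 and 0.0467 CPM. At 8 h the libraries held 35.0, 31.8 and 34.3 CPM, at 24 h 1.70, 1.56 and 1.58 CPM, and at 48 h 0.0288, 0.0330 and 0.0536 CPM. The rise was thus seen in all 3 libraries and had ended at 48 h, where the values overlapped those at 0 h. Against 0 h, MMP1 rose by a log2 change of 9.32 after 8 h (SE 0.20, adjusted p 7.62e-20). After 24 h the log2 change was still 4.94 (SE 0.20, adjusted p 2.73e-15), and after 48 h it was -0.42 (SE 0.35, adjusted p 0.445). Between 24 and 48 h it fell by 5.36 on the log2 scale (SE 0.21, adjusted p 7.11e-15). The parental libraries had 7.41, 6.56 and 7.72 CPM at 0 h, so untreated MYC-ER cells stood lower by a log2 difference of -7.10 (SE 0.19, adjusted p 3.03e-18). Parental MMP1 was 14.4, 14.2 and 20.4 CPM at 8 h, 17.2, 17.0 and 17.3 at 24 h, and 4.11, 4.86 and 5.04 at 48 h. Ordered by level, MYC-ER at 8 h lay above every parental library, the parental groups at 24 and 8 h overlapped, parental 0 h and then 48 h followed, and MYC-ER at 24, 0 and 48 h came last, the final pair overlapping. MMP1 shares 150 exon bases with WTAPP1 on the other strand, but WTAPP1 itself averaged at most 0.0372 CPM in any group.

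MMP10, stromelysin 2, has a broad range of matrix substrates and can activate other MMPs (ENSG00000166670.10, chr11:102770503-102780628, minus strand). It followed MMP1 closely. In MYC-ER cells the libraries had 5, 5 and 3 counts at 0 h (0.0290, 0.0284 and 0.0175 CPM), 10.87, 11.17 and 11.05 CPM at 8 h, 1.69, 1.57 and 1.78 CPM at 24 h, and 2, 0 and 2 counts at 48 h. These are log2 changes of 8.74 after 8 h (SE 0.28, adjusted p 4.82e-17) and 6.03 after 24 h (SE 0.28, adjusted p 2.69e-14). Both sizes are uncertain, since they rest on 3 to 5 counts per library at 0 h. At 48 h every library lay below every 0 h library, but the change of -1.54 (SE 0.59, adjusted p 0.0704) missed the threshold. From 24 to 48 h the summed counts went from 816 to 4, a ratio of 207 (95% exact interval 80.4 to 760.3, counting error only), and the fitted fall of 7.56 (adjusted p 3.24e-14) passed. Parental MMP10 was 2.36, 1.91 and 2.79 CPM at 0 h, 4.55, 4.62 and 7.23 at 8 h, 8.28, 9.64 and 8.84 at 24 h, and 2.18, 2.69 and 2.68 at 48 h. The parental groups at 0 and 48 h overlapped, and 24 h lay above both. Across the 8 group means of log2 CPM, MMP1 and MMP10 had a Pearson r of 0.987, the highest of the 45 pairs among the 10 genes.

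MMP9, gelatinase B, degrades denatured collagen and type IV collagen of basement membranes (ENSG00000100985.7, chr20:46008908-46016561, plus strand). In untreated MYC-ER cells it had 0, 0 and 4 counts. At 8 h the libraries held 5.29, 3.85 and 3.76 CPM, at 24 h 2.49, 2.15 and 2.07, and at 48 h 0.2999, 0.152 and 0.215. Unlike MMP1 and MMP10, MMP9 had not returned to its 0 h level at 48 h: the 3 libraries held 23 to 52 counts. Summed over libraries, 8 h exceeded 0 h by a ratio of 557 (95% exact interval 217 to 2047), 24 h by 292 (114 to 1074) and 48 h by 29.3 (11.1 to 109), intervals that cover counting error alone. The fitted log2 changes were 8.99 (SE 0.45, adjusted p 9.39e-14), 8.05 (SE 0.45, adjusted p 8.73e-13) and 4.73 (SE 0.52, adjusted p 1.63e-07). They rest on the 4 counts of replicate 3 at 0 h. Without that library they were 12.43, 11.49 and 8.17, which are not measured sizes because the group then holds 0 counts. Parental MMP9 rose from 1.22, 0.874 and 1.09 CPM at 0 h to 3.04, 3.71 and 4.93 at 8 h and 6.97, 5.91 and 6.50 at 24 h, and was back at 0.861, 1.11 and 0.865 at 48 h. The highest MMP9 group was thus parental cells at 24 h, above MYC-ER and parental cells at 8 h, whose ranges overlapped. SLC12A5-AS1 shares 430 exon bases with MMP9 on the other strand and averaged at most 0.0485 CPM in any group.

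MMP7, matrilysin, is a small epithelial MMP without the hemopexin domain of most others (ENSG00000137673.9, chr11:102520508-102530753, minus strand). It went the opposite way. In MYC-ER cells it fell from 13.3, 14.3 and 14.2 CPM at 0 h to 2.95, 2.70 and 3.43 at 8 h and 0.215, 0.246 and 0.301 at 24 h, and stood at 0.438, 0.462 and 0.340 at 48 h. The log2 changes from 0 h were -2.20 (SE 0.17, adjusted p 1.07e-10), -5.78 (SE 0.20, adjusted p 2.40e-16) and -5.07 (SE 0.19, adjusted p 3.78e-15). From 24 to 48 h it regained 0.70 on the log2 scale (SE 0.19, adjusted p 0.00336), with no overlap. Untreated MYC-ER cells had more MMP7 than parental cells by a log2 difference of 4.59 (SE 0.19, adjusted p 4.00e-15), since the parental libraries held 0.491, 0.668 and 0.577 CPM at 0 h. At 48 h the lines overlapped, with parental values of 0.438, 0.369 and 0.491 CPM. In parental cells the 8 h rise of 0.55 (SE 0.17, adjusted p 0.0195) was lost with the trend on GC content removed (0.42, adjusted p 0.0709) and in a fit of only the groups compared (0.55, adjusted p 0.121). It was also lost without parental 0 h replicate 1 (0.44, adjusted p 0.105), 0 h replicate 3 (0.56, adjusted p 0.0510) or 8 h replicate 1 (0.43, adjusted p 0.107). The parental change at 48 h, -0.42 (adjusted p 0.0664), passed without 0 h replicate 1 (-0.53, adjusted p 0.0406) or 48 h replicate 3 (-0.52, adjusted p 0.0496). It also passed with the GC trend removed (-0.60, adjusted p 0.00983), with upper-quartile scaling (-0.46, adjusted p 0.0443) and under a stricter filter of 10 counts per library (-0.42, adjusted p 0.0487). The parental change at 24 h, -0.24 (adjusted p 0.302), passed with the GC trend removed (-0.45, adjusted p 0.0437). The summed fibroblast markers, nearly all COL1A1 and DCN, also fell in MYC-ER cells, from 370 to 377 CPM at 0 h to 102 to 109 at 8 h. They stood at 80.0 to 91.8 CPM at 24 h and 121 to 130 at 48 h, and at 117 to 133 CPM in untreated parental cells. Their part in the MMP7 result was not tested.

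MMP7, MMP10, MMP1, the stromelysin gene MMP3 and MMP13 lie in one run of 9 MMP genes on chromosome 11, all on the minus strand. In the RefSeq promoter table (GRCh38.p14), 5 of the 10 genes had an entry, MMP7, MMP10, MMP14, TIMP1 and TIMP3. The 250 bases before each start were searched for TGANTCA (the AP-1 motif, both strands), TATAAA (the TATA box, gene strand) and CACGTG (the E-box that MYC binds with MAX, both strands). TGANTCA occurred in 6.57% of all 35116 promoters in the table, TATAAA in 6.8%, CACGTG in 6.34%, and TGANTCA together with TATAAA in 0.698%. MMP7 and MMP10 each held TGANTCA with its first base at -67 and TATAAA at -30 and -31. In MYC-ER cells their transcripts moved in opposite directions at 8 and 24 h, while in parental cells both were called higher at 8 h. That parental MMP7 call passed in 28 of 33 alternatives. At 24 h parental MMP7 was not called (-0.24), while MMP10 was higher (1.92). None of the 3 motifs occurred in these windows of MMP14, TIMP1 and TIMP3. The stretches below are shown because they set MMP7 and MMP10, genes 1 and 5 of the chromosome 11 run, beside MMP14 and TIMP3. They run 5′ to 3′ on the gene's strand, with matches in capitals, and end at the gene's start or where GENCODE's gene begins. They are chr11:102530754-102530867 (minus), chr11:102780629-102780748 (minus), chr14:22836465-22836556 (plus) and chr22:32801585-32801700 (plus). A match is a match of letters and no measurement of binding.
MMP7: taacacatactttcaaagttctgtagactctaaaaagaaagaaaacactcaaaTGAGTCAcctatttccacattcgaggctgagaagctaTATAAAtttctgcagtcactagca
MMP10: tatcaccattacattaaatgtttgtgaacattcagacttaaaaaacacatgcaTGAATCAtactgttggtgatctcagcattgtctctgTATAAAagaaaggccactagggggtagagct
MMP14: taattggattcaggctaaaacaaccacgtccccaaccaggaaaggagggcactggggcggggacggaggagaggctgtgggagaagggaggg
TIMP3: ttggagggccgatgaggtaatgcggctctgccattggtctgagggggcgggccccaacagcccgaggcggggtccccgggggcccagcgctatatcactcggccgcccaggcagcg

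MMP14, also called MT1-MMP, is the membrane-bound collagenase that activates MMP2 at the cell surface (ENSG00000157227.13, chr14:22836557-22849027, plus strand). Per length it was the most abundant of the 7 MMPs in every group. MMP28, an epithelial MMP outside that set, was at a like level per length, with 74.7 ± 3.8 CPM per kb in untreated MYC-ER cells against 74.8 ± 1.1 for MMP14 (SD, n = 3), and 60.7 ± 11 against 57.8 ± 7.1 in untreated parental cells. In MYC-ER cells it fell from 275, 280.1 and 282 CPM at 0 h to 137.3, 128.4 and 133.9 at 8 h, and stood at 137.6, 136.0 and 137.2 at 24 h and 373, 364 and 362 at 48 h. All 6 libraries at 8 and 24 h lay below, and all 3 at 48 h above, the 0 h libraries. The log2 changes were -1.07 (SE 0.063, adjusted p 1.47e-12), -1.03 (SE 0.063, adjusted p 3.56e-12) and 0.39 (SE 0.062, adjusted p 1.97e-05). Parental MMP14 ranged from 188 to 241 CPM at 0 h and from 165 to 192 afterwards. Its parental falls of 0.29, 0.24 and 0.30 on the log2 scale passed the threshold (adjusted p 0.00132, 0.00377 and 0.000528). All 3 calls were lost with the GC trend removed (-0.09, 0.02 and -0.04, adjusted p 0.0696, 0.719 and 0.508) and in fits of only the groups compared (adjusted p 0.0957, 0.136 and 0.0928).

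TIMP2, the inhibitor that also bridges MMP14 and pro-MMP2, had the same dip in MYC-ER cells (ENSG00000035862.12, chr17:78852977-78925387, minus strand). Its libraries held 81.0, 76.8 and 78.2 CPM at 0 h, 38.0, 38.1 and 38.1 at 8 h, 27.4, 25.0 and 26.3 at 24 h, and 89.4, 89.8 and 88.2 at 48 h. The log2 changes were -1.05 (SE 0.055, adjusted p 1.81e-13), -1.58 (SE 0.055, adjusted p 2.28e-16) and 0.18 (SE 0.054, adjusted p 0.00928). Unlike MMP14, TIMP2 fell further between 8 and 24 h, by 0.54 (SE 0.055, adjusted p 2.39e-08). Parental TIMP2 lay between 58.6 and 66.9 CPM at 0, 8 and 24 h with overlapping groups, and at 75.8 to 78.5 CPM at 48 h, a rise of 0.29 (SE 0.054, adjusted p 0.000225) that missed the threshold in a fit of only the groups compared (0.30, adjusted p 0.0548). Over the 8 group means, TIMP2 and MMP14 had a Pearson r of 0.789. TIMP2 shares exon bases with CEP295NL on the same strand (198) and AC022966.1 on the other (367), so some of its reads are uncertain.

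MMP2, gelatinase A, is the substrate of the MMP14 and TIMP2 complex and is best known from stromal cells (ENSG00000087245.13, chr16:55389700-55506691, plus strand). It rose late. MYC-ER libraries had 1.30, 0.992 and 1.18 CPM at 0 h, 0.564, 0.915 and 0.927 at 8 h, 2.91, 2.42 and 2.85 at 24 h, and 10.6, 10.9 and 10.2 at 48 h. A log2 change of -0.53 after 8 h (SE 0.16, adjusted p 0.00483) was followed by a rise of 1.23 after 24 h (SE 0.15, adjusted p 2.84e-07), and the rise reached 3.19 after 48 h (SE 0.16, adjusted p 3.70e-13). The fall at 8 h missed the threshold in a fit of only the 2 groups compared (-0.49, adjusted p 0.0702). Parental MMP2 had 2.99, 2.58 and 2.72 CPM at 0 h, was lower at 24 h by a log2 change of -0.53 (adjusted p 0.00571, but 0.0655 with the GC trend removed), and reached 3.42, 3.76 and 4.24 CPM at 48 h (0.46, adjusted p 0.0151). That last call was lost without parental 48 h replicate 3 (0.37, adjusted p 0.0776) and in a fit of only the groups compared (0.47, adjusted p 0.0594). The parental change at 8 h, -0.37 (adjusted p 0.0656), passed without parental 0 h replicate 2 (-0.41, adjusted p 0.0490) or MYC-ER 8 h replicate 1 (-0.37, adjusted p 0.0238), which is not in this contrast but shares the estimate of spread. It also passed with upper-quartile scaling (-0.41, adjusted p 0.0381), under a filter of 10 counts per library (-0.36, adjusted p 0.0409) and by DESeq2's Wald test (-0.35, adjusted p 0.0285). In MYC-ER cells the summed fibroblast markers, nearly all COL1A1 and DCN, were 370 to 377 CPM at 0 h and 121 to 130 CPM at 48 h. Their part in the MMP2 result was not tested. AC007336.3 shares 174 exon bases with MMP2 on the same strand.

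MMP13, collagenase 3, was close to undetected (ENSG00000137745.12, chr11:102942995-102955734, minus strand). It had 0 counts in all 3 MYC-ER libraries at 8 h, 10, 0 and 0 at 24 h, 9, 0 and 0 at 48 h and 3, 0 and 6 at 0 h. A count of 0 allows up to 0.0219 CPM on the unadjusted total of the smallest library, taking 3 counts as the limit. Parental libraries held 0 to 29 counts, with 29, 6 and 14 at 8 h. No contrast called it, and no fold is given at this depth.

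**Figure D2:**
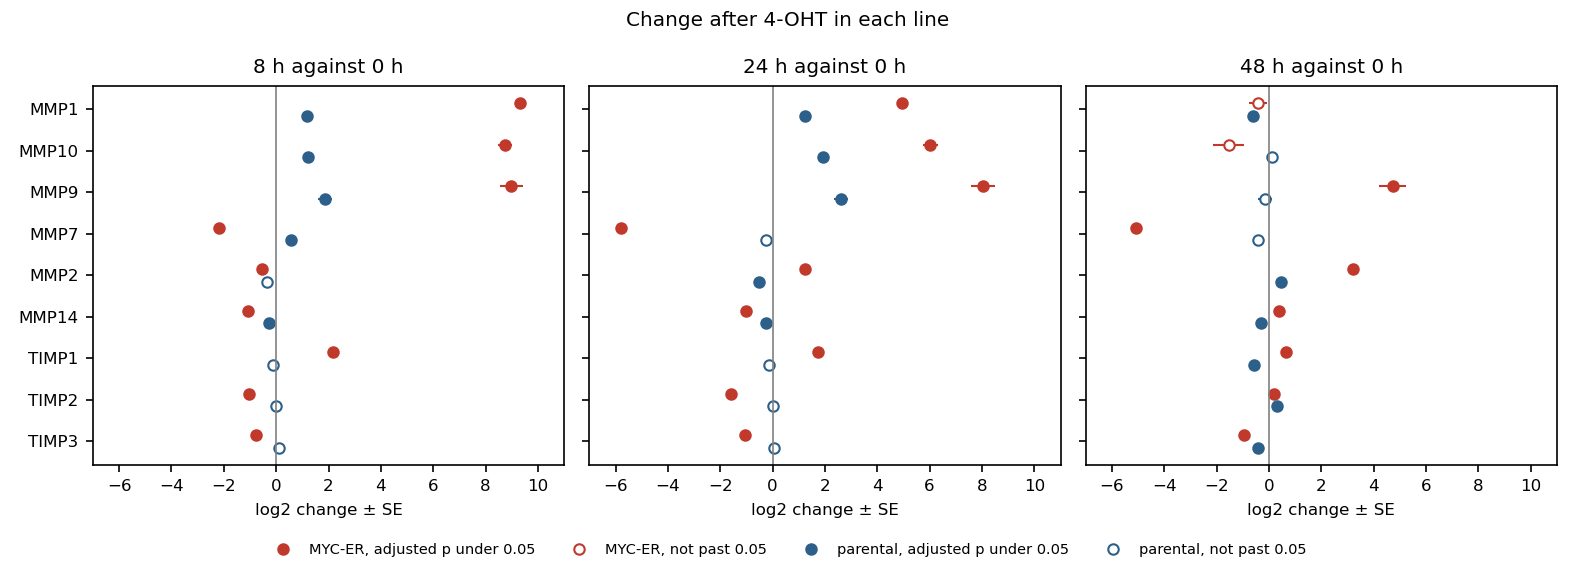
Log2 change from 0 h (points) with its SE (bars) for 9 genes at 8, 24 and 48 h, red for MYC-ER and blue for parental, filled where the adjusted p was under 0.05. At 8 h MMP1, MMP10 and MMP9 rise by 8.74 to 9.32 in MYC-ER cells and by 1.17 to 1.87 in parental cells.

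TIMP1, the inducible inhibitor secreted by many cells, was the only TIMP called higher at 8 and 24 h in MYC-ER cells (ENSG00000102265.12, chrX:47582313-47586789, plus strand). MYC-ER libraries had 64.6, 63.7 and 67.2 CPM at 0 h, 309.9, 281 and 292 at 8 h, 220.3, 216 and 213 at 24 h, and 105, 98.3 and 99.3 at 48 h. The groups did not overlap, and each time lay above 0 h, with log2 changes of 2.18 (SE 0.096, adjusted p 1.18e-14), 1.73 (SE 0.095, adjusted p 5.88e-13) and 0.63 (SE 0.093, adjusted p 8.87e-06). Even the highest MYC-ER value was below every parental one. Parental libraries held 661, 485 and 744 CPM at 0 h, 567, 577 and 604 at 8 h, 548, 597 and 573 at 24 h and 417, 409.7 and 429 at 48 h. At 0 h the lines differed by -3.27 on the log2 scale (SE 0.10, adjusted p 3.02e-17). The parental fall at 48 h was 0.59 (SE 0.092, adjusted p 4.95e-05). The parental changes at 8 and 24 h, -0.11 and -0.14 (adjusted p 0.402 and 0.256), turned on single libraries: they were -0.27 and -0.29 (adjusted p 0.000330 and 9.58e-05) without parental 0 h replicate 2, and 0.04 and 0.02 without parental 0 h replicate 3.

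TIMP3 is the inhibitor that binds to the matrix and also blocks several ADAM proteases (ENSG00000100234.11, chr22:32801701-32863043, plus strand). MYC-ER libraries had 319, 323 and 317 CPM at 0 h, 179, 185 and 195 at 8 h, 154, 156 and 152 at 24 h, and 162, 162 and 168 at 48 h. The falls of 0.78 (SE 0.046, adjusted p 1.57e-12), 1.05 (SE 0.046, adjusted p 1.17e-14) and 0.96 (SE 0.046, adjusted p 2.00e-13) on the log2 scale left it below its 0 h level at 48 h, when TIMP2 was above its own. The change from 24 to 48 h, 0.09 (adjusted p 0.0949), passed with library size alone (0.14, adjusted p 0.00957) and upper-quartile scaling (0.17, adjusted p 0.00239). It also passed with the GC trend removed (0.17, adjusted p 0.000555) and under a filter of 10 counts per library (0.11, adjusted p 0.0290). All MYC-ER groups lay above the parental ones, where TIMP3 stood between 62.6 and 70.6 CPM at 0, 8 and 24 h and at 45.8 to 49.8 at 48 h, a change of -0.41 (SE 0.046, adjusted p 3.06e-06). At 0 h the difference between the lines was 2.32 (SE 0.048, adjusted p 3.66e-20). The summed fibroblast markers, nearly all COL1A1 and DCN, were likewise highest in untreated MYC-ER cells (370 to 377 CPM). They were lower after 8, 24 and 48 h (102 to 109, 80.0 to 91.8 and 121 to 130 CPM), and 117 to 133 CPM in untreated parental cells. Their part in the TIMP3 result was not tested. Over the group means TIMP3 and TIMP1 had the lowest Pearson r of the 45 pairs, -0.874.

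Levels of different genes were set side by side per length, as CPM per kb of the longest coding transcript of GENCODE release 29. MMP14 made up 85.4% ± 0.29 (SD, n = 3) of the summed level of the 7 MMPs in untreated MYC-ER cells. Its share was 55.9% ± 0.30 after 8 h of 4-OHT, 90.9% ± 0.42 after 24 h and 96.7% ± 0.11 after 48 h. MMP1, MMP9 and MMP10 together took 0.0503% ± 0.0096 of the sum before 4-OHT and 39.5% ± 0.30 after 8 h. The same 3 took 8.48% ± 0.62 in untreated parental cells, then 21.0% ± 3.7, 24.9% ± 0.87 and 8.00% ± 0.44 after 8, 24 and 48 h. Among TIMPs, TIMP1 was 39.5% ± 0.82 of the sum in untreated MYC-ER cells and 84.0% ± 0.95 after 8 h, whereas it was 92.4% to 94.7% in the 4 parental groups. The summed level of the 3 TIMPs divided by that of the 7 MMPs was 1.72 ± 0.030 in untreated MYC-ER cells. It was 5.01 ± 0.049, 5.90 ± 0.091 and 1.498 ± 0.017 after 8, 24 and 48 h, against 7.89 to 9.36 in the parental groups. Both the shares and the ratios depend on which MMPs are summed, above all on MMP28. Over all 23 listed MMPs, an alternative added after seeing the data, MMP14 made up 43.4% ± 1.0, 34.6% ± 0.27, 54.6% ± 0.42 and 63.9% ± 0.22 of the sum in MYC-ER cells in order of time, and MMP28 43.4% ± 1.4, 30.6% ± 0.68, 32.5% ± 0.53 and 28.8% ± 0.27. MMP1, MMP9 and MMP10 then took 0.0255% ± 0.0043 in untreated MYC-ER cells and 24.4% ± 0.36 after 8 h. The TIMP to MMP ratio became 0.875 ± 0.013, 3.10 ± 0.048, 3.54 ± 0.030 and 0.990 ± 0.0073, against 4.02 to 5.33 in the parental groups. These are ratios of transcripts and say nothing of protein or of activity.

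**Figure D3:**
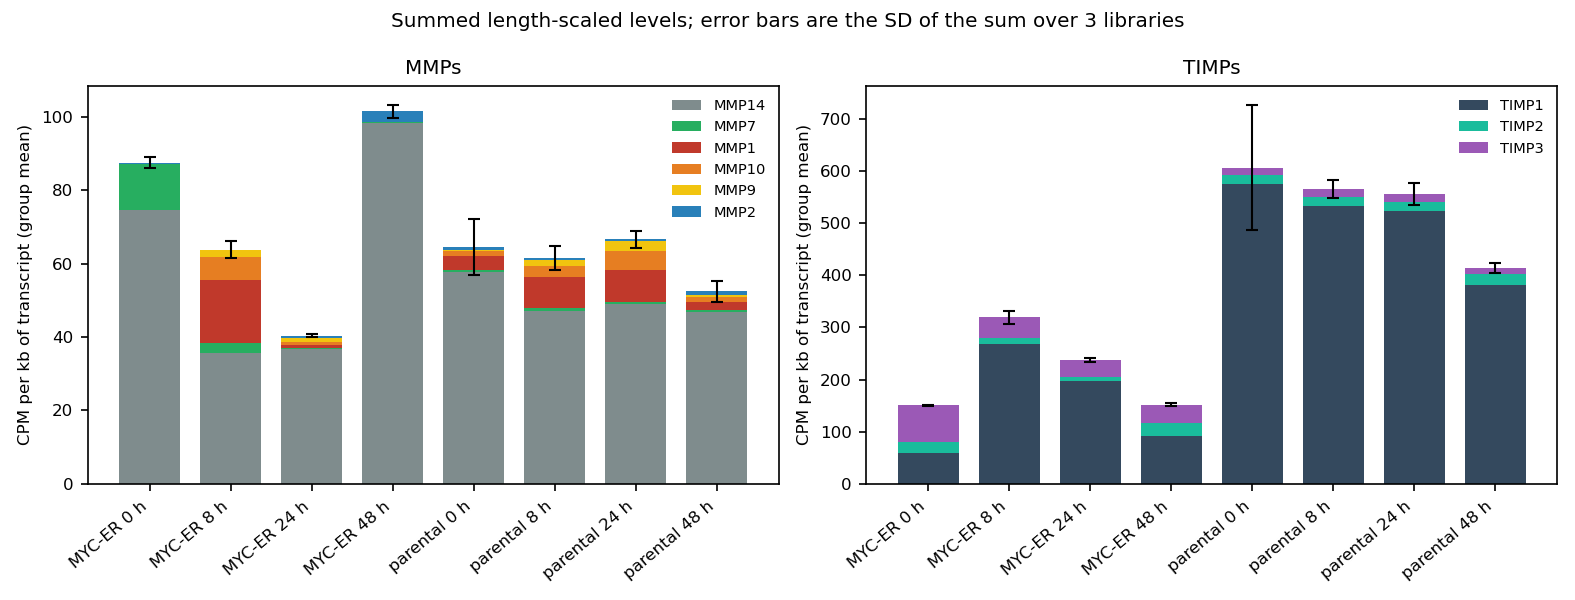
Stacked bars of the group mean CPM per kb of 6 MMPs (left, MMP13 left out as too low to show) and 3 TIMPs (right) in the 8 groups, with the SD of the sum over 3 libraries as error bars. Among the MMPs drawn, MMP14 fills most of every bar, and TIMP1 most of every parental TIMP bar.

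Before 4-OHT the lines differed in 9 of the 10 genes, where 64.3% of all genes did. MYC-ER cells were higher in MMP7, MMP14, TIMP2 and TIMP3 (4 genes, 31.6% of all genes) and lower in MMP1, MMP2, MMP9, MMP10 and TIMP1 (5 genes, 32.7%). The log2 differences for MMP10, MMP2, MMP14 and TIMP2 were -6.51 (SE 0.28, adjusted p 7.10e-15), -1.25 (SE 0.15, adjusted p 2.16e-07), 0.37 (SE 0.062, adjusted p 1.99e-05) and 0.32 (SE 0.054, adjusted p 1.79e-05). For MMP9 the summed parental counts exceeded those of MYC-ER by a ratio of 138 (95% exact interval 53.5 to 507).

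The parental line received the same treatment without the fusion. With no vehicle named for 0 h, 4-OHT, its solvent and handling cannot be told apart in these contrasts. At 8 h 5 of the 10 genes were called there, where 31.0% of all genes were, 4 higher (15.0%) and 1 lower (16.0%). At 24 h 5 were called (42.9%), 3 higher (21.2%) and 2 lower (21.7%), and at 48 h 6 (40.5%), 2 higher (20.4%) and 4 lower (20.1%). The number at 8 h was 3 with the GC trend removed and 3 in a fit of only the groups compared, and that at 48 h was 3 in the latter fit. The rises of MMP1, MMP9 and MMP10 at 8 and 24 h held in all alternatives that tested them. At 8 h they were 1.17 (SE 0.12, adjusted p 8.21e-07), 1.87 (SE 0.26, adjusted p 3.01e-05) and 1.22 (SE 0.18, adjusted p 3.63e-05). At 24 h they were 1.25 (SE 0.12, adjusted p 2.48e-07), 2.60 (SE 0.27, adjusted p 5.54e-07) and 1.92 (SE 0.18, adjusted p 1.52e-07). At 48 h MMP1 was below its 0 h level by 0.63 (SE 0.12, adjusted p 0.000290), while MMP9 (-0.17, adjusted p 0.672) and MMP10 (0.10, adjusted p 0.720) did not pass.

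Whether the lines responded differently was tested as the line by time interaction, how far the change in MYC-ER cells exceeded that in parental cells. It was called for 8 of the 10 genes at 8 h (55.2% of all genes), 4 positive (27.3%) and 4 negative (27.8%). At 24 h 9 were called (54.5%), 5 positive (27.7%) and 4 negative (26.8%), and at 48 h 6 (45.0%), 4 positive (23.6%) and 2 negative (21.4%). For MMP1 the 8 h interaction was 8.15 (SE 0.23, adjusted p 4.26e-17), the 24 h one 3.69 (SE 0.24, adjusted p 3.12e-11) and the 48 h one 0.21 (SE 0.40, adjusted p 0.736). For MMP10 the 48 h value of -1.63 (SE 0.62, adjusted p 0.0542) passed without MYC-ER 0 h replicate 3 (-1.83, adjusted p 0.0433), parental 0 h replicate 3 (-1.80, adjusted p 0.0349) or parental 48 h replicate 1 (-1.73, adjusted p 0.0412). MMP2 had an 8 h interaction of -0.16 (SE 0.21, adjusted p 0.548), which passed with the GC trend removed (-0.48, adjusted p 0.0487), and a 48 h one of 2.73 (SE 0.21, adjusted p 1.09e-09). TIMP2 differed at 8 and 24 h (-1.06 and -1.61, adjusted p 1.21e-10 and 1.26e-13) but its 48 h value of -0.11 (SE 0.076, adjusted p 0.266) did not pass.

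Between successive times in MYC-ER cells, 8 of the 10 genes differed from 8 to 24 h (55.5% of all genes), 1 higher (28.4%) and 7 lower (27.1%). The one that rose was MMP2, by 1.76 (SE 0.16, adjusted p 2.60e-09), and MMP1 (-4.38, adjusted p 8.19e-17), MMP7 (-3.57, adjusted p 4.94e-13) and MMP10 (-2.72, adjusted p 3.38e-11) fell most. From 24 to 48 h 8 differed (53.7%), 4 higher (28.2%) and 4 lower (25.5%). MMP2, MMP14 and TIMP2 rose by 1.96, 1.42 and 1.76 (adjusted p 3.01e-10, 4.61e-14 and 2.28e-16), with MMP7, and MMP1, MMP9, MMP10 and TIMP1 fell. For MMP14 the change from 8 to 24 h was 0.04 (adjusted p 0.616) but 0.25 (adjusted p 0.000604) when scaled by library size alone and 0.26 (adjusted p 2.29e-06) with the GC trend removed, and for TIMP3 it was -0.28 (adjusted p 2.36e-05) but -0.07 (adjusted p 0.178) under library size alone.

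Of 17 further genes, the other MMPs and TIMP4, 11 passed the filter. MMP8, MMP20, MMP26, MMP27 and TIMP4 had 0 counts in all 24 libraries, and MMP12 had 2 counts in 1 library. At 8 h in MYC-ER cells 4 of the 11 were called higher and 4 lower (32.2% and 35.4% of all genes), with a median log2 change of -0.48 against -0.10 over all genes. MMP3, stromelysin 1, had 0, 0 and 2 counts at 0 h, 434, 412 and 492 at 8 h, and 0, 0 and 3 at 24 h. Its summed counts at 8 h exceeded those at 0 h by a ratio of 811 (95% exact interval 224 to 6701) and those at 24 h by 505 (173 to 2453). MMP3 thus peaked with its chromosomal neighbours MMP1 and MMP10 but was at its floor by 24 h. MMP17, a membrane-anchored MMP, rose by 2.40 on the log2 scale (SE 0.19, adjusted p 1.78e-10), its mean CPM going from 0.650 ± 0.075 to 3.44 ± 0.60. MMP19 fell from 9.62 to 3.36 CPM (-1.52, adjusted p 3.66e-07), and MMP23B, which has a near-identical copy and is therefore uncertain, by 1.88. In parental cells at 8 h 2 of the 11 were higher and 3 lower (15.0% and 16.0% of all genes), and MMP3 rose by 1.65 there, from 24 to 28 counts per library to 52 to 95.

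Of 16 tested genes that activate, block or bind MMPs, 11 were called higher and 5 lower at 8 h in MYC-ER cells, where 32.2% and 35.4% of all genes were (median 0.87 against -0.10 over all genes). TFPI2, a protease inhibitor of the matrix, rose by 9.90 (SE 0.23, adjusted p 3.62e-19) to a mean of 26.5 CPM. It had only 4 to 5 counts per library at 0 h, so this size is uncertain. SERPINE2, an inhibitor of serine proteases, rose by 4.73 (adjusted p 1.92e-20), from 1.45 to 38.5 CPM. A2M, a broad protease inhibitor, was called too (adjusted p 0.0431), on 0 counts in the 0 h group and 21 in the 8 h group, and no size is given for it. At 48 h 8 of the 16 were higher and 2 lower (23.4% and 20.7% of all genes), and PLAU, the urokinase that makes plasmin, led with 1.82. In parental cells at 8 h 6 were higher and 3 lower (15.0% and 16.0% of all genes), PLAU among the higher with a log2 change of 1.01 (adjusted p 1.21e-08).

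Among 14 tested proteases of the ADAM, ADAMTS and BMP1 families, 9 were higher and 3 lower at 8 h in MYC-ER cells, beside 32.2% and 35.4% of all genes (median 0.67 against -0.10), led by ADAM12 (6.24, from 0.208 to 15.8 CPM) and ADAM19 (5.25, from 0.0272 to 1.06 CPM). At 48 h 3 were higher and 3 lower, beside 23.4% and 20.7%. Of 18 tested matrix proteins, 8 were higher and 10 lower at 8 h, with a median of -0.54, against the same shares and median of all genes at 8 h. NID1, the basement membrane linker nidogen 1, fell by 6.08 from 30.4 CPM, and COL5A1 was called lower on 34 counts in the 0 h group and 0 in the 8 h group. TNC, tenascin C, and LAMB3, a laminin 332 chain, rose by 3.65 and 3.29. At 48 h 9 were higher and 7 lower (23.4% and 20.7% of all genes), with FN1, fibronectin, at 3.37 and NID1 at -3.69.

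All 14 AP-1 and ETS factor genes were tested, and at 8 h in MYC-ER cells 8 were higher and 6 lower, where 32.2% and 35.4% of all genes were (median 1.01 against -0.10). ETV4 and ETV5, ETS factors of the PEA3 group, rose by 8.41 and 5.86 (adjusted p 1.27e-20 and 2.88e-20), from 0.0808 to 27.7 and from 0.411 to 24.0 CPM. FOSL1, which encodes the AP-1 subunit FRA1, rose by 3.74 (SE 0.087, adjusted p 3.09e-19), and ELF3, an epithelial ETS factor, fell by 4.31. The MYC-ER group means of FOSL1 were 5.59, 74.9, 8.75 and 6.50 CPM in order of time, and its parental group means lay between 43.3 and 75.0 CPM. In parental cells at 8 h 3 of the 14 were higher and 4 lower (15.0% and 16.0% of all genes), with ELF3 at -1.21 and ETS1 at 1.12.

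**Figure D4:**
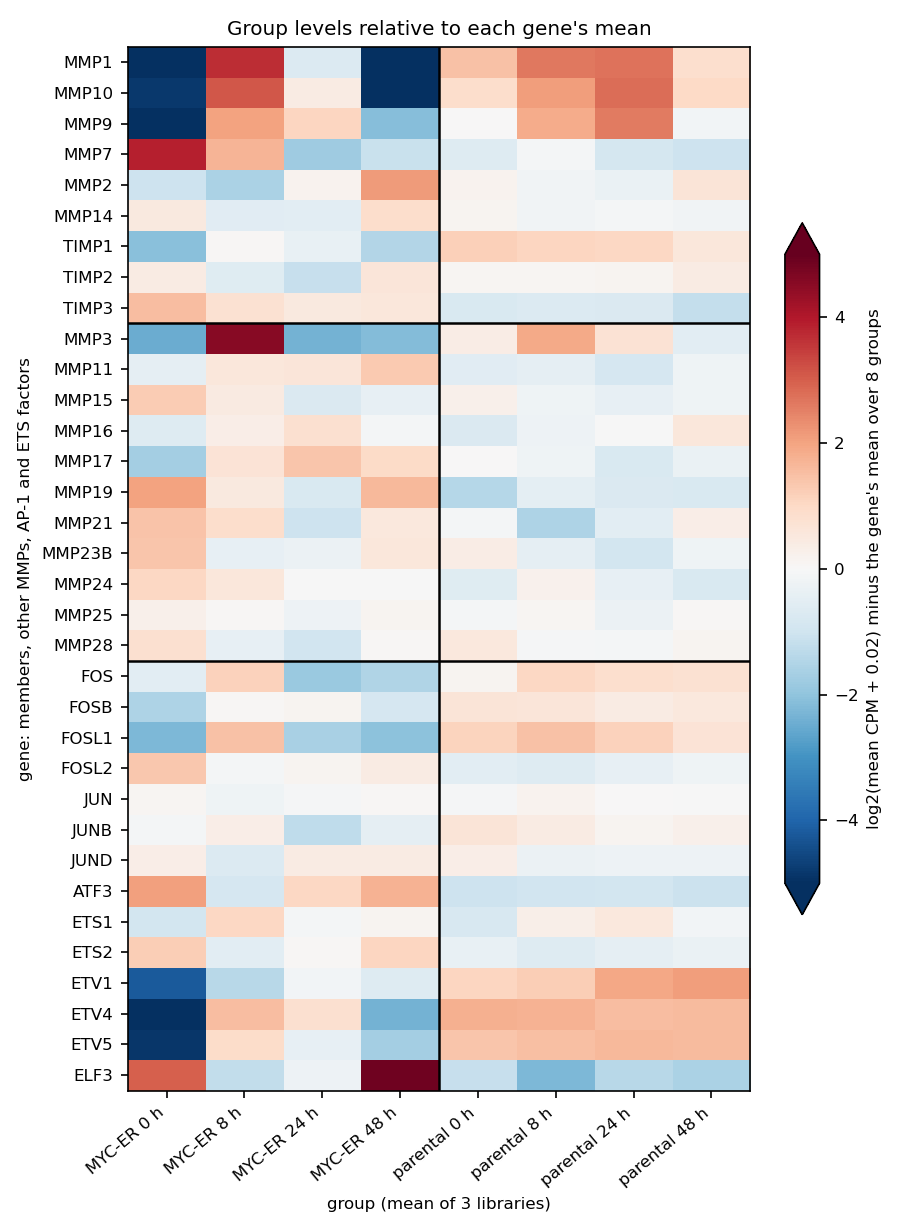
Colour gives log2(mean CPM + 0.02) in each of the 8 groups minus the gene's mean over the groups, for 9 of the 10 genes, 11 other MMPs and 14 AP-1 and ETS factors, cut at 5 either way. In MYC-ER cells MMP1, MMP10, MMP9, MMP3, ETV4, ETV5 and FOSL1 are low at 0 h and high at 8 h, and in parental cells ETV4 and ETV5 are high at every time.

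MMP1, MMP10 and MMP9 had the widest range of group means, 9.40, 9.16 and 8.51 on the log2 CPM scale. Among genes averaging 1 CPM or more, those most like MMP1 by Pearson r over the 8 group means were CGAS (0.996), PSMD12 (0.995) and POLR3F (0.995). For MMP10 they were PSMD12 (0.995), POLR3F (0.994) and DYNC1LI1 (0.993), and for MMP9 UBA6-DT (0.982), NRG1 (0.980) and PLEKHA8P1 (0.978). These are likenesses of 8 points that share their libraries, over genes whose ranges may be far smaller, and they carry no test.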

How the data were processed

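The authors deposited a table of raw counts per gene, whole numbers with 1 column per library. Per the submitters' processing notes, Trimmomatic 0.39, STAR, StringTie 2.1.3b and the build GRCh38 were used. Which tool gave the counts, the annotation and the strand setting are not given in the sources used here. If the counts came from StringTie's coverage they are estimates, and counting intervals are approximate. Identifiers matched a symbol table in 60295 rows.

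Counts were fitted in edgeR 4.0.16 (R 4.3.3) with TMM scaling and 1 mean per group over all 24 libraries, after filterByExpr (22158 genes, common biological coefficient of variation 0.151). Contrasts used the two-sided quasi-likelihood F test with Benjamini-Hochberg adjustment over all genes and a threshold of 0.05. An SE is the log2 change divided by the root of F. Log2 CPM has a prior count of 2. Intervals on ratios of summed counts are Clopper-Pearson at 95%. The script was tested on simulated data.

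Alternatives were other scalings, other filters, DESeq2 1.42.0, a block for the replicate number, fits restricted to the groups of a contrast, a lowess trend on GC content (span 0.3) removed from each library, and leaving out each library. GC content, lengths and gene positions came from GENCODE release 29, and promoters from RefSeq. From the fixed lists, at most 4 genes per list and contrast were named, those with the largest change among the called. Some listed genes are not reported here. The genes and lists were chosen with earlier results of these data known.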

Additional observations from a re-analysis of the deposited data

Results flagged for a closer look

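Each result here is a log2 line by time interaction (the MYC-ER change from 0 h minus the parental change) that passed an adjusted p of 0.05 in edgeR's quasi-likelihood test; that is, MYC-ER and parental cells changed by different amounts. At 8 h the values were 8.15 for MMP1, 7.53 for MMP10, 7.12 for MMP9 and 2.29 for TIMP1. They were -2.75 for MMP7, -1.06 for TIMP2, -0.87 for TIMP3 and -0.77 for MMP14. At 24 h they were 5.44 for MMP9, 4.10 for MMP10, 3.69 for MMP1, 1.87 for TIMP1 and 1.77 for MMP2, and -5.54 for MMP7, -1.61 for TIMP2, -1.12 for TIMP3 and -0.79 for MMP14. At 48 h they were 4.89 for MMP9, 2.73 for MMP2, 1.22 for TIMP1 and 0.70 for MMP14, and -4.65 for MMP7 and -0.55 for TIMP3. MMP14 changed sign between 24 and 48 h. The MMP9 values rest on 4 counts in MYC-ER 0 h replicate 3, and without it they were 10.56, 8.89 and 8.34, which are not measured sizes. Groups of 3 libraries were too small to look for single libraries far from the others.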

How the results depend on the processing

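Of 3526 values of 9 genes under 33 alternatives, 3468 kept their direction and side of the threshold, 16 were no longer past it, 24 came to pass it, and 18 changed direction. MMP13 is left out here. Its fitted values, 375 in all, never passed the threshold and changed direction 18 times.

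With at least 10 counts in every library, only 6 of the genes were tested, and the number called was 5 from 8 to 24 h in MYC-ER cells, 3 and 2 in parental cells at 8 and 24 h, and 5 for the interaction at 8 h. With the GC trend removed it was 3 in parental cells at 8 h, and with only the groups compared it was 3 there and 3 at 48 h, where the cause was not tested. Other counts were within 1.5 times the reported ones.

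Direction changed only for small changes. With the GC trend removed, parental TIMP1 was 0.0789 at 8 h and 0.1058 at 24 h, MMP14 0.0202 at 24 h, MMP9 0.1806 at 48 h and MMP10 -0.0807 at 48 h. With upper-quartile scaling, parental TIMP2 was -0.0299 and -0.054 at 8 and 24 h and TIMP3 -0.01 at 24 h. Leaving out 1 library each, the ranges were -0.27 to 0.0383 for parental TIMP1 at 8 h and -0.2946 to 0.0212 at 24 h, -0.0276 to 0.0518 and -0.0104 to 0.0826 for parental TIMP2 at the same times, -0.0344 to 0.2685 for parental MMP10 at 48 h, -0.2796 to 0.0363 for the MMP2 interaction at 8 h and -0.1098 to 0.4701 for the MMP1 interaction at 48 h. The cause of these was not tested. The replicate block changed no call of the 9 genes and left 9, 9 and 7 called at 8, 24 and 48 h in MYC-ER cells. The replicate numbers were taken only to name the libraries. Same-numbered libraries did not deviate together in every pair (correlations from -0.382 to 0.422), and only for the lines at 0 h did each library correlate best with its own number. These correlations cannot show that the numbers carry no batch. The median change over all genes shifted on the log2 scale by up to 0.206 with library size alone, -0.139 with upper-quartile scaling and 0.153 with the GC trend removed. Depth limits MMP13 and, in MYC-ER cells at 0 or 48 h, MMP1, MMP9 and MMP10. MMP1 had 7 to 12 counts per library at 0 h there and 5 to 9 at 48 h, and MMP10 had 3 to 5 and 0 to 2. The sizes of the changes of MMP1 and MMP10 are thus uncertain.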
